A study of Caenorhabditis elegans with 12 samples.

Results

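The genes described here are 9 genes for ciliary tubulins and for the enzymes that modify or regulate the microtubules of the cilium: the alpha-tubulins *tba-5*, *tba-6* and *tba-9*, the beta-tubulin *tbb-4*, the deglutamylase *ccpp-1*, the glutamylases *ttll-4* and *ttll-11*, and the kinases *dyf-5* and *dyf-18*. The rule that selects them is a list of gene symbols and uses no measured value. The list was chosen with earlier results of these data known. All 9 were found among the 46766 annotated genes and the 22542 genes with normalised read counts. All 9 were also among the 12096 genes that passed the filter on low counts and were tested. RNA was sequenced from BAG neurons, a pair of CO2-sensing neurons with cilia in the head of *C. elegans*, sorted by fluorescence from day 1 adults. The methods describe these animals as hermaphrodites. The 6 *arcp-1* mutant libraries came from *arcp-1(db1082); npr-1(ad609)* animals and the 6 control libraries from *npr-1(ad609)* animals, so both genotypes carried the *ad609* allele of the neuropeptide receptor gene *npr-1*. Both also carried the *ynIs64[flp-17p::gfp]* transgene, whose *flp-17* promoter marks BAG and provided the fluorescence used for sorting. *arcp-1* encodes an ankyrin-repeat protein of BAG cilia. Each genotype was represented by 1 strain, and the methods describe the 6 libraries of each as biological replicates.

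The microtubules of a cilium, the axoneme, are built from alpha- and beta-tubulin, and *C. elegans* sensory neurons add particular tubulin isotypes to the general ones that fill the axon and cell body. Glutamate side chains are added to the C-terminal tails of tubulins by enzymes of the tubulin tyrosine ligase-like (TTLL) family and are shortened by cytosolic carboxypeptidases such as CCPP-1, and their amount affects axoneme stability and the motors that run on it. DYF-5 and DYF-18 are kinases that limit cilium length and act on intraflagellar transport, the movement of cargo along the axoneme.

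The libraries held between 374550 and 8683395 reads assigned to genes, with 4 of the 12 below 1000000 reads (*arcp-1* mutant replicates 3 and 4 and control replicates 1 and 5). The libraries were amplified full-length cDNA without molecular identifiers, so read counts include PCR copies. Of 7 BAG markers, 5 were abundant and *flp-10* was low, at 0 to 8.83 normalised counts in *arcp-1* mutants and 2.40 to 10.8 in controls. The seventh, *egl-6*, was at 0 to 8.09 in *arcp-1* mutants and 6.85 to 21.7 in controls, with a log2 fold change of -2.41 (limma adjusted p = 0.0689), and was called lower in DESeq2. The summed BAG markers ranged from 2327 to 14390 normalised counts in *arcp-1* mutants and from 2913 to 11940 in controls, lowest in replicate 1 of each genotype. Markers of other tissues were detected in both genotypes. The 5 body wall muscle markers summed to between 26140 and 109700 normalised counts in *arcp-1* mutants and between 26830 and 103100 in controls. Nearly all of this was *unc-54*, with means of 58450 in *arcp-1* mutants and 62280 in controls. *myo-3*, *mlc-2*, *unc-15* and *mlc-1* had means of 121 to 722 in *arcp-1* mutants and 140 to 751 in controls, so the sum rests on 1 gene. In bulk libraries of this kind, fewer BAG cells and less RNA per cell cannot be told apart.

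The genes differed widely in level. On the TPM scale, which corrects for gene length, *dyf-18* was the highest in controls at 326 ± 97.8 TPM (SD, n = 6). *tba-9* at 200.3 ± 68.6 TPM and *tbb-4* at 193 ± 47.8 TPM followed. Below them lay *dyf-5* at 42.7 ± 9.24 TPM, *ccpp-1* at 38.7 ± 5.99 TPM and *ttll-4* at 26.6 ± 5.18 TPM. The lowest were *ttll-11* at 9.41 ± 4.38 TPM, *tba-6* at 3.77 ± 6.47 TPM and *tba-5* at 1.38 ± 1.11 TPM. Most neighbours in this order overlapped between libraries. In controls the ranges were separate only between *tbb-4* and *dyf-5* and between *ttll-4* and *ttll-11*. In *arcp-1* mutants the ranges of these 2 pairs were also separate, as were those of *ccpp-1* and *ttll-4*. These were not gaps in the mutant order, because another gene spanned each of them. The range of *tba-9* overlapped those of both *tbb-4* and *dyf-5*. The range of *dyf-5* overlapped those of both *ccpp-1* and *ttll-4*, and the range of *tba-5* those of both *ttll-4* and *ttll-11*. The mutant order put *tbb-4*, at 256 ± 47.6 TPM, above *tba-9*, at 138 ± 77.8 TPM, and placed *tba-5*, at 13.9 ± 7.74 TPM, above *ttll-11*, at 6.81 ± 3.10 TPM, and *tba-6*, at 5.36 ± 3.19 TPM.

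The comparison of genotypes asked which of these genes differed in level when *arcp-1* was disrupted. Of the 9 genes, *tba-5* rose in *arcp-1* mutants and no other gene passed the threshold, an adjusted p of 0.05 in limma's moderated test across all tested genes. Among all 12096 genes, 1.66% passed it, 1.33% with a higher level in *arcp-1* mutants and 0.331% with a lower one. The fitted log2 fold changes of the 9 genes, *arcp-1* mutants over controls, were positive for 4 and negative for 5, with a median of -0.04, against a median of -0.02 over all genes tested. An unadjusted p under 0.05 was obtained for 2 of the 9, *tba-5* and *tbb-4*, and for 10.4% of all genes tested.

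**Figure D1:**
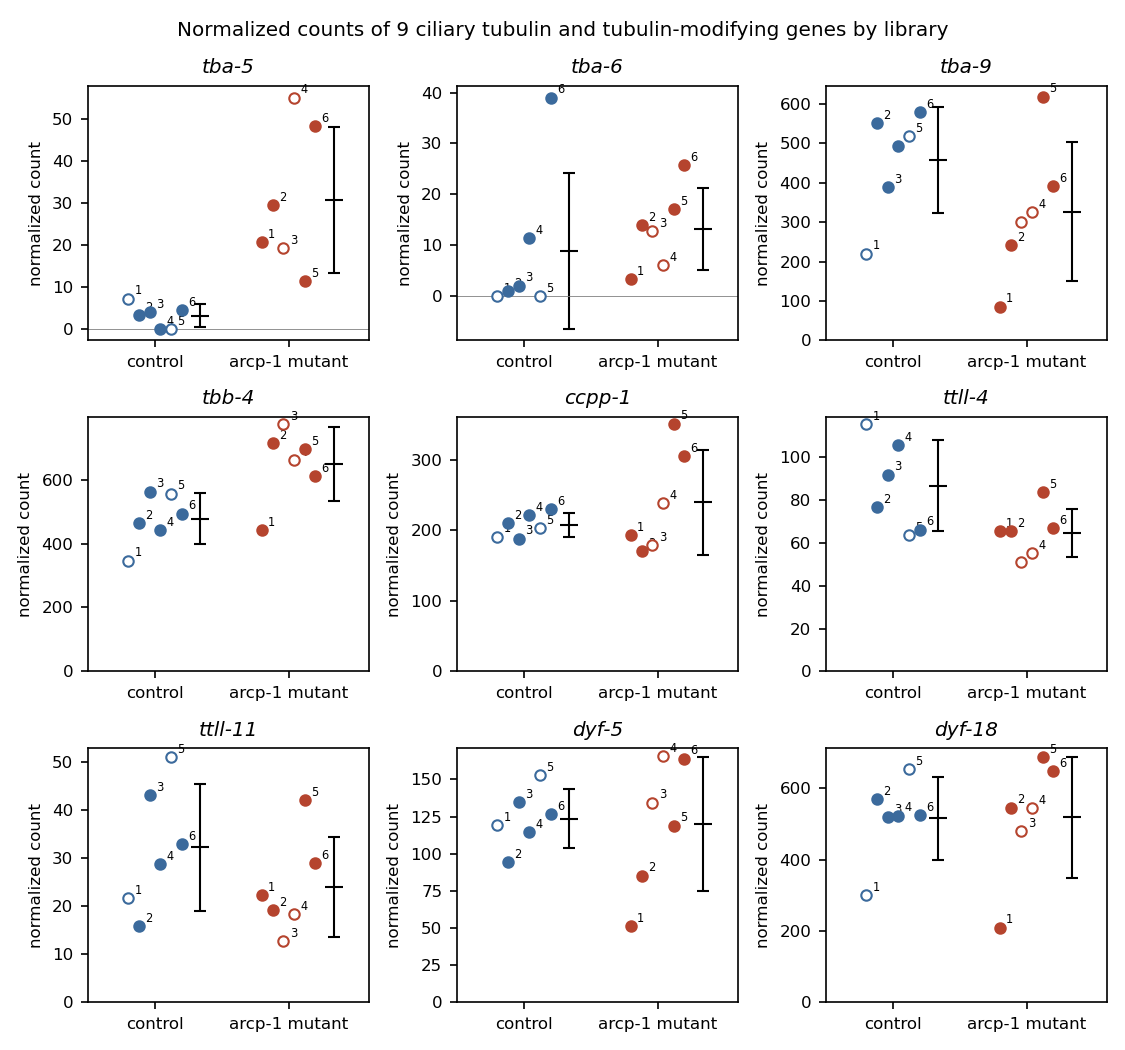
Normalised read counts (linear y axes, one panel per gene) of the 9 genes in the 12 libraries, with *arcp-1* mutants and controls side by side. Points are libraries marked with their replicate number, open points are libraries under 1000000 reads, and bars are the mean ± SD (n = 6). In the *tba-5* panel the 6 *arcp-1* mutants, at 11.4 to 55.1, lie above all controls, at 0 to 7.22, while the genotypes overlap in the other 8 panels.

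*tba-5* (WBGene00006531, I:8353410-8357828 on WS255) encodes an alpha-tubulin of sensory cilia. Its normalised counts in *arcp-1* mutant replicates 1 to 6 were 20.6, 29.4, 19.2, 55.1, 11.4 and 48.4. In control replicates 1 to 6 they were 7.22, 3.35, 4.03, 0, 0 and 4.41. Every *arcp-1* mutant library was therefore above every control library, the lowest mutant being replicate 5 and the highest control replicate 1. Complete separation in this direction was seen for 1.29% of all genes tested. The means were 30.7 ± 17.4 and 3.17 ± 2.79 normalised counts (SD, n = 6 each). The log2 fold change was 3.14 (SE 0.64, 95% interval 1.79 to 4.49), or 8.81-fold with an interval of 3.45 to 22.5, at a limma adjusted p of 0.0161. A two-sided exact permutation test of *tba-5* alone gave p = 0.00216, the smallest that 6 libraries against 6 allow.

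The level of *tba-5* rested on few reads. *tba-5* was above 1 CPM (reads scaled to the library total) in all 6 *arcp-1* mutant libraries and in 4 of 6 control libraries. It therefore met the filter on low counts through the *arcp-1* mutants, where it was high. Without that filter its limma adjusted p was 0.0346. The libraries of *arcp-1* mutants held 70, 40, 3, 9, 20 and 120 *tba-5* reads, 262 in all, and those of controls 2, 7, 10, 0, 0 and 13, 32 in all, out of 23771510 and 25740388 reads. Control replicate 4 was deep, and its 0 reads allowed at most 1.13 normalised counts, taking 3 reads as the limit that a count of 0 allows. Control replicate 5 was shallow, and its 0 reads allowed up to 12.7 normalised counts, a level above that of *arcp-1* mutant replicate 5. These limits cover counting error only. Among the 4 libraries of each genotype with more than 1000000 reads, *tba-5* ranged from 11.4 to 48.4 in *arcp-1* mutants and from 0 to 4.41 in controls. The full set of libraries was already separated, so a part of it had to be separated too, and this adds no further evidence.

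The *tba-5* call did not survive every setting. Without *arcp-1* mutant replicate 6 the log2 fold change was 2.97 with a limma adjusted p of 0.0564, and without the 4 shallow libraries it was 2.93 with a limma adjusted p of 0.0876. The size of the change depended on the pseudocount. With 0.1 in place of 1 the log2 fold change was 4.37 with a limma adjusted p of 0.101, and with 10 it was 1.54 with a limma adjusted p of 0.00826. On the reads recovered from the normalised counts, edgeR's quasi-likelihood test gave 3.24 with an adjusted p of 0.0292 and DESeq2 gave 3.29 with an adjusted p of 4.3e-05.

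**Figure D2:**
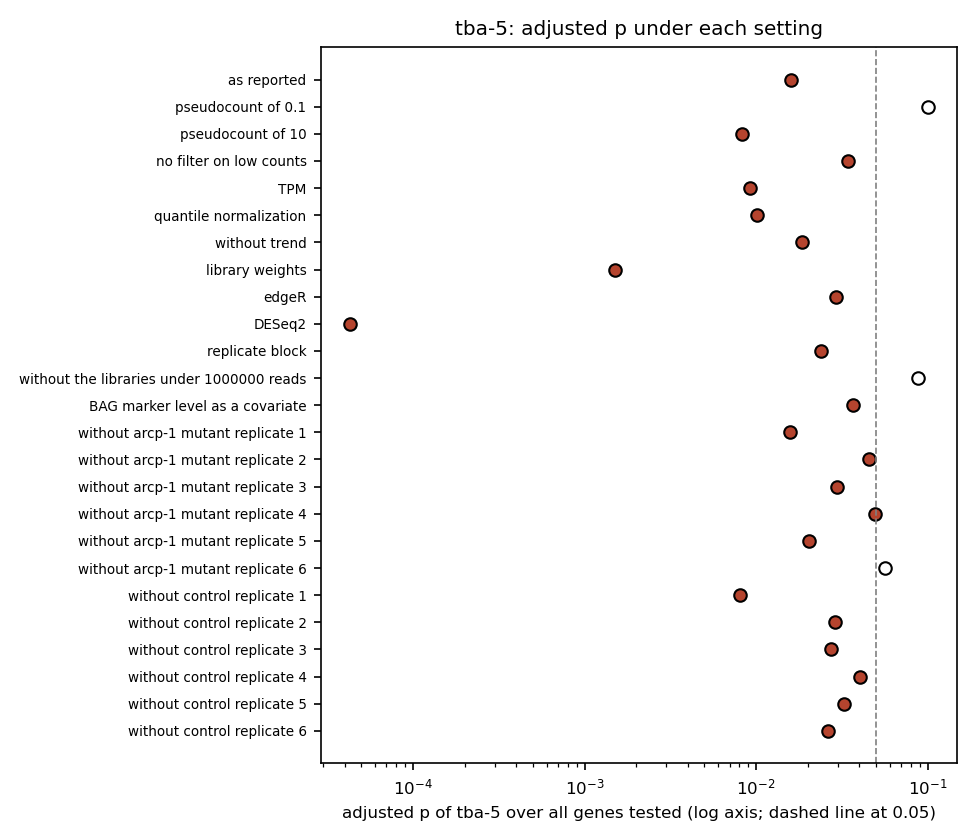
Adjusted p of *tba-5* over all genes tested (x axis, log scale) as reported, under each alternative that tested it and with each library left out (y axis), with a dashed line at 0.05 and filled points below it. The values run from 4.3e-05 in DESeq2 to 0.101 with a pseudocount of 0.1, and 3 open points lie to the right of the line.

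The exons of *tba-5* share 26 of 1817 bases with those of *rsd-6* on the opposite strand, and counting did not use strand. *rsd-6*, at 175 ± 57.2 normalised counts in *arcp-1* mutants and 177 ± 32.1 in controls, had a log2 fold change of -0.06 with a limma adjusted p of 0.960. Amphid neurons are another class of ciliated neurons of the head. The 12 amphid markers found, of which 4 passed the filter and 0 were called by limma, summed to 42.1 to 224 normalised counts in *arcp-1* mutants and 46.1 to 184 in controls, with between 1 and 8 of them at 0 reads in each library, and the genotypes overlapped. Their part in the *tba-5* result was not tested.

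*tba-6* (WBGene00006532, I:8994002-8998593) is the alpha-tubulin of ciliated neurons that release extracellular vesicles, IL2 neurons and male-specific sensory neurons. Its normalised counts in *arcp-1* mutant replicates 1 to 6 were 3.24, 13.97, 12.8, 6.13, 17.1 and 25.8. In controls they were 0, 0.958, 2.01, 11.4, 0 and 39.0. *tba-6* was above 1 CPM (reads scaled to the library total) in all 6 *arcp-1* mutant libraries and in 2 of 6 control libraries, yet the highest library of all was control replicate 6 and the genotypes overlapped. The log2 fold change was 1.67 (SE 0.87, 95% interval -0.17 to 3.51) with a limma adjusted p of 0.551, and the exact permutation p was 0.119. The size was uncertain, with a log2 fold change of 0.42 in edgeR, 0.48 in DESeq2, 0.85 without the 4 shallow libraries, and 0.51 to 2.89 for pseudocounts of 10 and 0.1. Of 8 markers of these extracellular vesicle neurons, *cwp-1* and *pkd-2* were highest in the same control replicate 6, at 570.0 and 117 normalised counts. So were *cwp-4* at 167.3, *cil-7* at 166.6, *lov-1* at 24.4 and *egas-1* at 13.9, while *klp-6* and *asic-2* were highest in other libraries. The 8 markers summed to between 6.77 and 441 normalised counts in *arcp-1* mutants, highest in replicate 2, and to between 18.1 and 1076 in controls, highest in replicate 6, with between 0 and 7 of them at 0 reads in each library. The markers did not run in parallel in *arcp-1* mutants, where *cwp-1* had a median of 0.147 normalised counts, *cwp-4* a median of 41.3 and *cil-7* a median of 30.95. The part of such cells in the *tba-6* values was not tested.

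*tba-9* (WBGene00006535, X:3252963-3256265), an alpha-tubulin found in a subset of ciliated sensory neurons, was by far the most abundant of the 3 ciliary alpha-tubulins. Its normalised counts in *arcp-1* mutants were 85.9, 241, 301, 325, 619 and 391, and in controls 220.2, 551, 389, 493, 518 and 579. Replicate 1 was the lowest library in each genotype, as it was for the summed BAG markers, and *arcp-1* mutant replicate 5 was the highest of all 12. The means were 327 ± 176 in *arcp-1* mutants and 458 ± 134 in controls. The log2 fold change of -0.64 (SE 0.37, 95% interval -1.43 to 0.16) did not pass the threshold, with a limma adjusted p of 0.628 and an exact permutation p of 0.182. Without *arcp-1* mutant replicate 1 the log2 fold change was -0.30, and with the BAG marker level as a covariate it was -0.10 with a limma adjusted p of 0.902.

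*tbb-4* (WBGene00006538, X:9434452-9436893) encodes the beta-tubulin of sensory cilia. Its normalised counts in *arcp-1* mutants were 442, 716, 775, 662, 696 and 611, and in controls 347, 465, 563, 443, 556 and 494. In 5 of 6 *arcp-1* mutant libraries *tbb-4* was above the highest control, and *arcp-1* mutant replicate 1 was the exception. The means were 650.1 ± 116 and 478 ± 80.2 normalised counts. The log2 fold change of 0.44 (SE 0.18, 95% interval 0.06 to 0.82) corresponded to an interval of 1.04- to 1.76-fold, with an exact permutation p of 0.0238. After adjustment over all genes tested *tbb-4* did not pass, with a limma adjusted p of 0.364. With the BAG marker level as a covariate the log2 fold change was 0.60 with a limma adjusted p of 0.0534. Without the 4 shallow libraries it was 0.31 with a limma adjusted p of 0.772.

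**Figure D3:**
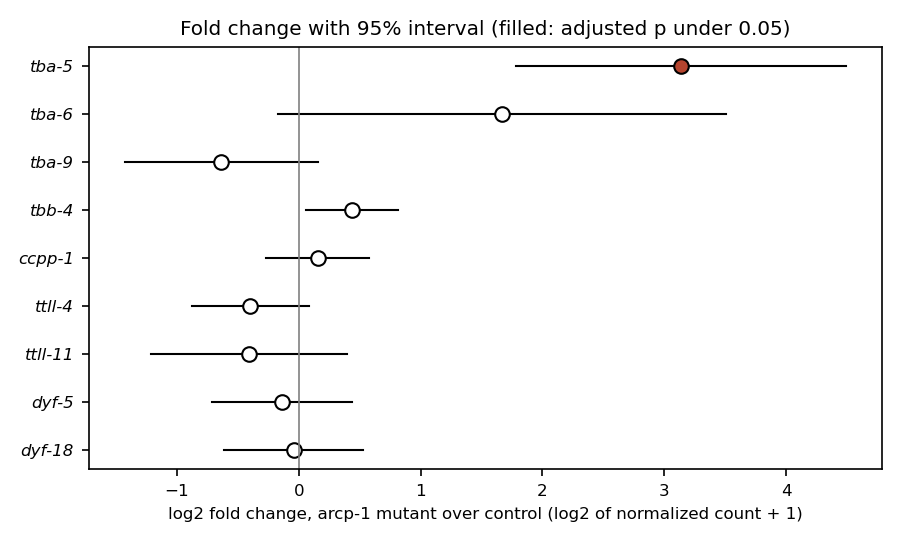
Log2 fold change of the 9 genes, *arcp-1* mutants over controls, from the limma fit (x axis, log2 scale), with 95% intervals over 6 libraries per genotype as bars and a filled point for an adjusted p under 0.05. The intervals of *tba-5*, 1.79 to 4.49, and of *tbb-4*, 0.06 to 0.82, lie above 0, and *tba-5* has the one filled point.

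The ciliary isotypes were a small part of the tubulin transcripts in the sorted samples. Of all alpha-tubulin TPM, *tba-9* took 4.74 ± 1.41% in controls and 3.31 ± 1.16% in *arcp-1* mutants. *tba-5* took 0.0341% in controls and 0.385% in *arcp-1* mutants, and *tba-6* took 0.0864% and 0.130%. The larger shares in controls belonged to *mec-12*, an alpha-tubulin abundant in touch receptor neurons, at 58.4%, and to the widely used isotypes *tba-1* at 23.1% and *tba-2* at 12.8%. None of these 3 passed the threshold, with log2 fold changes of -0.27 (limma adjusted p = 0.837), 0.06 (0.954) and 0.21 (0.747).

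Of all beta-tubulin TPM, *tbb-4* took 8.80, 11.6, 14.7, 11.2, 15.7 and 12.8% in *arcp-1* mutant replicates 1 to 6. In control replicates 1 to 6 its share was 4.56, 9.69, 10.5, 10.8, 12.1 and 11.2%. The lowest share of each genotype was in replicate 1, and the ranges overlapped. In control replicate 1 another beta-tubulin, the touch receptor neuron isotype *mec-7*, took 52.4% of beta-tubulin TPM. The mean *tbb-4* share was 12.5 ± 2.51% in *arcp-1* mutants and 9.82 ± 2.70% in controls, a difference of 2.66 percentage points (two-sided exact permutation p = 0.110). Against the widely used isotypes *tbb-1* and *tbb-2* alone, *tbb-4* made up 14.9% in *arcp-1* mutants and 12.1% in controls (exact permutation p = 0.0844). *tbb-2*, at 0.14 (limma adjusted p = 0.842), and *tbb-1*, at 0.07 (0.916), had small log2 fold changes that did not pass the threshold.

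**Figure D4:**
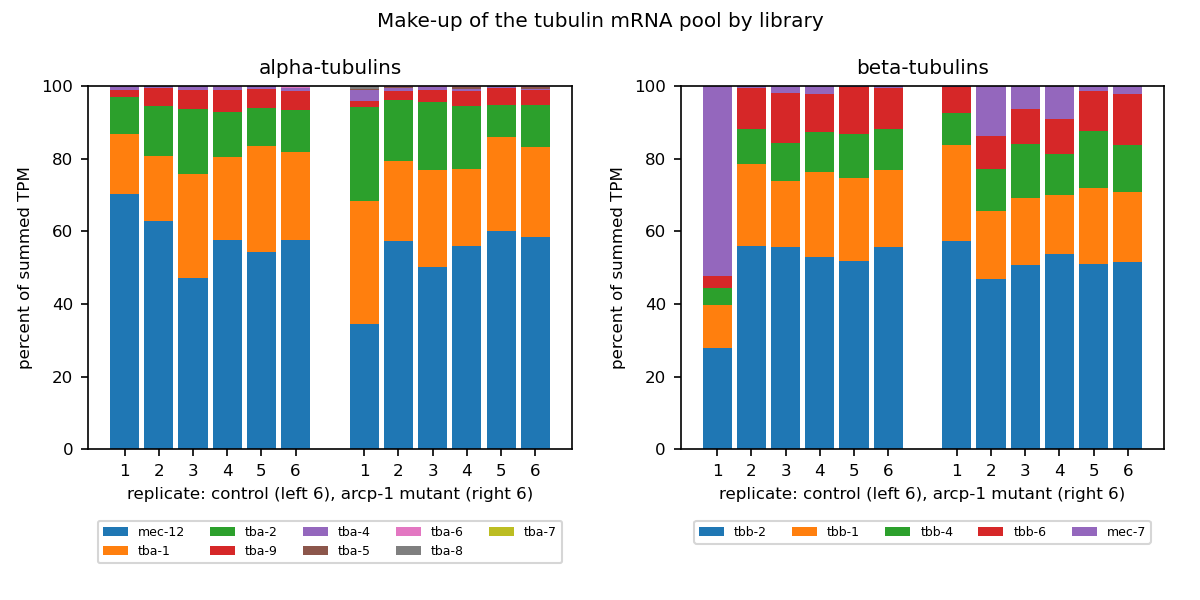
Percent of the summed TPM of alpha-tubulins (left) and beta-tubulins (right) taken by each isotype (stacked colours, y axes from 0 to 100), with 1 bar per library, the 6 controls left and the 6 *arcp-1* mutants right. *tbb-4* averages 9.82% of the beta-tubulin bars in controls and 12.5% in *arcp-1* mutants, *mec-7* takes 52.4% in control replicate 1, and *tba-5* and *tba-6* are too small to see in most bars.

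*tba-9* and *tbb-4* were close to each other in controls and less so in *arcp-1* mutants. The TPM of *tba-9* exceeded that of *tbb-4* in 3 of 6 control libraries and in 0 of 6 *arcp-1* mutant libraries. The median ratio of *tba-9* to *tbb-4* TPM was 1.09 in controls and 0.471 in *arcp-1* mutants. The difference between the ratios was not tested.

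Among the enzymes that change glutamylation, none passed the threshold. *ccpp-1* (WBGene00018995, I:5754312-5760803), which removes glutamates from tubulin tails, was even across controls at 191, 210.4, 189, 221, 204 and 230.4 normalised counts. In *arcp-1* mutants it was 193, 171, 179, 239, 352 and 305, with replicates 5 and 6 well above any control and replicates 2 and 3 below all of them. The means were 240 ± 74.1 and 208 ± 16.5, a coefficient of variation of 30.9% in *arcp-1* mutants and 7.94% in controls. The log2 fold change was 0.16 (SE 0.20, 95% interval -0.27 to 0.58, or 0.832- to 1.49-fold), with a limma adjusted p of 0.855 and an exact permutation p of 0.413.

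*ttll-4* (WBGene00014232, III:10124183-10132411) is a glutamylase that acts in ciliated neurons against CCPP-1. Its normalised counts in *arcp-1* mutants were 65.6, 65.5, 51.2, 55.1, 83.6 and 66.9, and in controls 116, 76.7, 91.8, 106, 63.7 and 66.2. The ranges overlapped, and the highest *arcp-1* mutant library, replicate 5, was just under the control median. The means were 64.7 ± 11.3 and 86.6 ± 21.3, and the log2 fold change of -0.40 (SE 0.23, 95% interval -0.88 to 0.08) gave a limma adjusted p of 0.608 and an exact permutation p of 0.0541.

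*ttll-11* (WBGene00019230, IV:8697736-8702699) is a glutamylase with roles in the cilia of extracellular vesicle releasing neurons. Its normalised counts were 22.4, 19.1, 12.8, 18.4, 42.1 and 29.0 in *arcp-1* mutants and 21.7, 15.8, 43.1, 28.8, 51.0 and 32.9 in controls, and replicate 5 was the highest in both. Its log2 fold change was -0.41 (SE 0.38, 95% interval -1.21 to 0.40), with a limma adjusted p of 0.786 and an exact permutation p of 0.264. Within libraries *ttll-4* exceeded *ttll-11* in all 12, with a median TPM ratio of 3.16 in controls and 3.23 in *arcp-1* mutants, while the median ratio of *ccpp-1* to *ttll-4* was 1.44 (range 0.984 to 2.07) in controls and 2.29 (1.55 to 2.71) in *arcp-1* mutants.

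The kinase *dyf-5* (WBGene00001121, I:9359075-9364180), of the MAK family, had normalised counts of 51.2, 85.3, 134, 165, 119 and 164 in *arcp-1* mutants and 119, 94.4, 135, 115, 153 and 127 in controls. The *arcp-1* mutants spanned the whole control range, with replicates 1 and 2 below it and replicates 4 and 6 above it. The means of 120 ± 45.0 and 124 ± 19.7 gave a log2 fold change of -0.14 (SE 0.27, 95% interval -0.71 to 0.44, or 0.611- to 1.36-fold), with a limma adjusted p of 0.916 and an exact permutation p of 0.688. Exons of *dyf-5* share 140 of 1878 bases with *ppfr-1*, whose limma adjusted p was 0.915.

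*dyf-18* (WBGene00010349, IV:11798667-11801088), a kinase related to the mammalian cell cycle-related kinase CCRK, had normalised counts of 209, 546, 480.0, 545, 687 and 648 in *arcp-1* mutants and 300, 569.8, 519, 523, 654 and 526 in controls. Replicate 1 was the lowest and replicate 5 the highest in both genotypes. The means of 519 ± 169 and 515 ± 117 gave a log2 fold change of -0.04 (SE 0.27, 95% interval -0.61 to 0.53, or 0.653- to 1.44-fold), with a limma adjusted p of 0.980. Both kinase fold changes changed sign under other settings, so no direction is given for either. The TPM of *dyf-18* was a median of 7.60 times that of *dyf-5* in controls and 7.25 times in *arcp-1* mutants.

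The wider gene lists gave the following counts. Of 7 tested alpha-tubulins, *tba-5* alone passed the threshold. No gene passed it in limma among the 5 beta-tubulins, 8 genes of the glutamylase and deglutamylase families and 3 acetylation genes. The same held for 10 ciliary and microtubule kinases and 20 tested folding and microtubule-associated genes. In this order the median log2 fold changes were 0.14, -0.03, 0.31, 0.49 and 0.10, against -0.02 for all genes tested. At an unadjusted p under 0.05 in limma these 5 lists held 1, 1, 0, 2 and 2 genes, where 10.4% of all genes tested reached it. At the adjusted threshold they held 0 in edgeR and 0 in DESeq2, except for *ttll-5* in DESeq2. *ttll-5*, a member of the glutamylase family, was the most abundant of the 8 genes of these 2 families. Its normalised counts were 485 to 613 in *arcp-1* mutants and 278 to 484 in controls, without overlap, and its log2 fold change of 0.53 (SE 0.16) had a limma adjusted p of 0.147. The other abundant genes of these lists did not pass the threshold. They included *ttll-12* (log2 fold change 0.07, limma adjusted p = 0.972) and the acetylation genes *mec-17*, a tubulin acetyltransferase of touch receptor neurons (0.76, 0.868), *atat-2*, a related acetyltransferase (0.31, 0.842), and *hda-6*, a deacetylase (-0.10, 0.931). They also included the MAP kinases *pmk-3* (0.41, 0.792) and *mapk-15* (-0.04, 0.983) and the microtubule-associated genes *zyg-9* (0.22, 0.721), *maph-1.1* (0.50, 0.376) and *ptl-1* (-0.18, 0.852). The intraflagellar transport list also held the *bbs* genes, *osm-12*, *arl-6*, *arl-13* and *tub-1*. Of its 37 tested genes, 35 had a positive log2 fold change, against 5780 of all 12096 genes tested, and their median was 0.76. The threshold was passed by 3 of the 37, *che-3*, *che-2* and *osm-1*, which are named here with their results known, where limma called 1.66% of all genes tested. edgeR called 4 of the 37 and DESeq2 called 14, all higher in *arcp-1* mutants, where edgeR called 1.64% and DESeq2 called 3.34% of all genes tested.

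Of the abundant genes of the set, *tba-9*, *tbb-4* and *dyf-18* varied together between libraries. After subtraction of each genotype mean, Pearson's r of log2(normalised count + 1) over the 12 libraries was 0.941 between *tba-9* and *dyf-18*, 0.808 between *tbb-4* and *dyf-18* and 0.707 between *tba-9* and *tbb-4*. *tba-5* did not follow them, with r between -0.375 and 0.128 for the other 8 genes, and *tbb-4* and *ttll-4* had the lowest r at -0.464. *ccpp-1*, also abundant, had an r of 0.667 with *tba-9*, 0.5 with *dyf-18* and 0.033 with *tbb-4*. The values of all genes in a library share its depth and its amount of BAG RNA. The summed BAG markers were lowest in replicate 1 of each genotype, where *tba-9*, *tbb-4* and *dyf-18* were also lowest, and these were the deepest *arcp-1* mutant library and a shallow control library. The part of either in the correlations was not tested. Among 2880 other genes with a mean of at least 100 normalised counts, those most like *tba-9* were *dyf-1* (r = 0.984), *madf-11* (0.979) and *nphp-1* (0.971). For *dyf-18* they were *T22C1.6* (0.980), *bath-39* (0.978) and *osm-5* (0.978), and for *tbb-4* they were *glb-14* (0.949), *T01D3.1* (0.932) and *pmr-1* (0.927). *ccpp-1* had weaker partners, led by *F25B4.5* (0.893), *pcaf-1* (0.891) and *vha-10* (0.883). Without *arcp-1* mutant replicate 1 these 12 values were between 0.872 and 0.972. An r above 0.9 was found with 150 genes for *tba-9*, 149 for *dyf-18*, 14 for *tbb-4* and 0 for *ccpp-1*.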

How the data were processed

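Smart-seq2 libraries were made from about 4000 sorted events each. The deposited normalised counts (a signal per gene) were made by the authors, who removed ribosomal reads with Bowtie2, trimmed with Trim Galore, mapped with STAR to WS255 (mapping quality of at least 20), counted with HTSeq without strand, and divided by DESeq2 size factors. TPM values were deposited by the authors. A deposited table holding log2 fold changes, a score, p-values and q-values is the authors' own comparison and was not used. Every normalised count was a whole multiple of a library's unit (100% whole within a relative tolerance of 1e-06), which gave the reads recovered per library.

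Genotypes were compared with limma 3.58.1 in R 4.3.3 (lmFit, eBayes with trend) on log2(normalised count + 1). On this scale the size of a change in a low gene depends on the added 1. The fit covered the 12096 genes that reached 1 CPM in 6 or more libraries, with Benjamini-Hochberg adjustment. Single values were compared with exact permutation tests over 924 assignments. edgeR 4.0.16 and DESeq2 1.42.0 were alternatives. Models were tested on simulated data. Overlapping exons came from the Ensembl annotation, and likeness was ranked for the 4 members with the highest mean count. From each tubulin list the genes past the threshold and the 3 highest by TPM were named. The members and lists were chosen with earlier results of these data known. No sequence was read.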

Additional observations from a re-analysis of the deposited data

Results flagged for a closer look

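Among 20 groups of 6 libraries tested for a single library far from the others, 2 were flagged, where chance flags about 1 in 20 groups. *tba-6* in control replicate 6 was 39.0 normalised counts, and the next control library was at 11.4, a gap of 0.709 of the whole control range. The *tbb-4* share of beta-tubulin TPM in control replicate 1 was 4.56%, and the next control library was at 9.69%, a gap of 0.679 of the range. The beta-tubulin *mec-7* took 52.4% of beta-tubulin TPM in that library and is part of the total behind the *tbb-4* share. A high *mec-7* therefore lowers that share, and how much of the low value it makes up was not tested.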

How the results depend on the processing

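Directions were kept under all settings run for every member except *dyf-5* and *dyf-18*. *dyf-5* reversed from -0.14 to 0.017 with library weights and to 0.10 with the mean log2 level of the BAG markers as a covariate. Leaving out a library gave -0.25 to 0.0859 for *dyf-5* (the highest without *arcp-1* mutant replicate 1). *dyf-18* reversed from -0.04 to 0.10 with library weights, 0.020 in edgeR, 0.0098 in DESeq2 and 0.33 with the covariate, and leaving out a library gave -0.19 to 0.20. The number of members past the threshold fell from 1 to 0 with a pseudocount of 0.1 (*tba-5* at 4.37, limma adjusted p = 0.101), without the libraries under 1000000 reads (2.93, 0.0876) and with a mean of at least 100 normalised counts, which left *tba-5* untested, and was 0 to 1 when a library was left out (0 without *arcp-1* mutant replicate 6). Leaving out a library gave 2.81 to 3.42 for *tba-5* and a *tbb-4* share difference of 1.61 to 3.39 points, with an exact permutation p of 0.0216 without *arcp-1* mutant replicate 1. The number of all genes past the threshold was 201 in the main setting, 484 with library weights, 404 in DESeq2, 341 with the covariate, 99 with a mean of at least 100, 110 without the shallow libraries, 329 without *arcp-1* mutant replicate 1 and 124 without *arcp-1* mutant replicate 6. Samples of the 2 genotypes share only a replicate number: deviations of same-numbered libraries correlated at 0.039 to 0.317, and 2 of 6 *arcp-1* mutant libraries correlated best with their own number. With the replicate number as a block, 291 genes and 1 member passed (*tba-5*, limma adjusted p = 0.0238), and the *tbb-4* share difference of 2.66 points had an exact sign-flip p of 0.0313. Depth limits *tba-5*, *tba-6* and *ttll-11*, whose values rest on few reads in the shallow libraries.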
